A study of Mus musculus with 8 samples.

Results

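The genes described here are 41 components of the mouse DNA replication machinery. They were picked from the gene table by name, although earlier results of these data were known when the list was made. The list holds origin recognition and licensing factors, the MCM helicase and its activators, the sliding clamp and its loader, and primase and DNA polymerases. It also holds single-strand binding proteins, Okazaki fragment enzymes, suppliers of deoxynucleotides, and regulators of S phase entry. All 41 were among the 29234 gene symbols of the table, and all 41 passed the filter on low counts that kept 12729 genes. They were measured by RNA sequencing in wild-type (WT) epithelial organoids grown from mouse colon crypts. The organoids had been treated for 5 days, as the labels state, with 4 mg/mL of fecal supernatant from mice given dextran sodium sulfate (FS_DSS, 4 libraries), which injures the colon epithelium, or from healthy mice (FS_CTR, 4 libraries). The study used male C57BL/6N mice, and the labels name the FS_DSS donors as mice with DSS-induced dysbiosis. The comparison asks how the epithelium responds to fecal products of that dysbiosis, with no untreated organoids among these 8 libraries. Pellets of each kind were pooled and frozen first, and no source used here says whether the 4 libraries of a condition came from separate cultures or animals, so the p-values measure only the spread between these libraries, which may be technical.

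Before each S phase, the origin recognition complex with Cdc6 and Cdt1 loads the ring-shaped MCM helicase onto DNA. Cyclin-dependent kinases then switch the helicase on with the help of Cdc45 and the GINS complex, and clamp, primase and polymerases follow. Most of these genes are transcribed as cells pass from G1 into S phase, under E2F factors, and in the colon epithelium they mark the dividing stem and progenitor cells of the lower crypt. In bulk RNA, fewer dividing cells and less replication RNA per cell cannot be told apart.

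Total counts ran from 18968416 to 27035243 per library. FS_CTR replicates 3 and 4 stood apart: 38.7% and 33.3% of their counts came from genes of the mitochondrial genome, against 2.83% to 6.98% in the other 6 libraries. Levels below are CPM, counts divided by library size, here after TMM scaling, a method that sets libraries to a common level by their typical gene. The part of the mitochondrial share in the results was not tested, and counts without these libraries are given beside them. Summed CPM of 8 epithelial markers was 16028 to 18220 in FS_DSS libraries and 14338 to 18017 in FS_CTR libraries. Of 8 immune, 10 fibroblast and smooth muscle, 5 endothelial and 6 neuronal and glial markers, 3, 3, 2 and 1 passed the filter, with sums of at most 17.1 CPM in any library.

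Since E2F factors bind short DNA elements near the starts of many replication genes, promoter windows from 250 bases before to 50 bases after the annotated start were read from RefSeq on GRCm38.p6. A window was found for 34 of the 41 genes, with 40 windows in all. Letters searched on both strands were the E2F-type elements TTTCGCGC, TTTGGCGC, TTTCCCGC, TTTGCCGC and GGCGGGAA, the CCAAT box, and TTTGAA, the core of the CHR element of mitotic genes. GGCGGGAA shares 7 letters with TTTCCCGC read on the other strand, so 1 stretch can match both. An E2F-type match stood in 18 of 40 member windows (45%), against 3.89% of all 32851 windows. CCAAT stood in 23 member windows (57.5%), against 37.4% of all, and TTTGAA in 5 (12.5%), against 17.9%. A match is a description of letters and not an occupied site.

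Windows of genes that the results below turn on follow, 5′ to 3′ on the strand of the gene and in lower case. In the windows of Mcm6, Prim1 and Uhrf1, shown because their CPM in replicate 4 was under that in replicates 1 and 2 in both conditions, capitals mark the E2F-type matches. The Mcm6 window held 3 of them, a pair of which overlap, and for Uhrf1 1 of its 2 windows is printed.
Mcm6, chr1:128359656-128359955, minus strand: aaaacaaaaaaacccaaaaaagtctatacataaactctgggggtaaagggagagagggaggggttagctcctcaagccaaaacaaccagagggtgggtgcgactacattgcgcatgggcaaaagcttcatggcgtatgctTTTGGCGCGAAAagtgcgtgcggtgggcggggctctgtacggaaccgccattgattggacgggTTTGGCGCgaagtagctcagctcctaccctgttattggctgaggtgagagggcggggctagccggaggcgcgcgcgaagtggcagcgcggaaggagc
Prim1, chr10:128014965-128015264, plus strand: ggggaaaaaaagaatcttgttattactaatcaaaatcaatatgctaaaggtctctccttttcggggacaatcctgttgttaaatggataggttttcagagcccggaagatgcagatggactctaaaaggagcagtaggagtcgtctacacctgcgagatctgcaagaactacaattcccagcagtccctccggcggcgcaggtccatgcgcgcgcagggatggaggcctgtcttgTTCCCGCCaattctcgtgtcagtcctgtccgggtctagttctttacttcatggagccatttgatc
Uhrf1, chr17:56304063-56304362, plus strand: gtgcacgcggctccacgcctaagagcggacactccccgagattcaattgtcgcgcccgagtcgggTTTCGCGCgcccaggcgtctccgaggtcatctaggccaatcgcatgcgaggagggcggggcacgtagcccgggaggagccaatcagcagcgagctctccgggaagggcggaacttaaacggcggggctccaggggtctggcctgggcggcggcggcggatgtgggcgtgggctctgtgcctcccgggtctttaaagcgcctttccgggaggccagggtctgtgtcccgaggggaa
The Orc6 and Rpa2 windows are shown because these genes were lower in FS_DSS in all 4 same-numbered pairs of libraries. Prim1 and Uhrf1 were lower in all 4 pairs as well. Rpa2 also had less CPM in replicate 4 than in replicates 1 and 2 in both conditions. The windows printed are thus examples, and these traits do not divide the genes by element. They held no E2F-type match of the letters searched, and capitals mark CCAAT, which reads ATTGG on the other strand, in 1 place for Orc6 and 3 for Rpa2.
Orc6, chr8:85299382-85299681, plus strand: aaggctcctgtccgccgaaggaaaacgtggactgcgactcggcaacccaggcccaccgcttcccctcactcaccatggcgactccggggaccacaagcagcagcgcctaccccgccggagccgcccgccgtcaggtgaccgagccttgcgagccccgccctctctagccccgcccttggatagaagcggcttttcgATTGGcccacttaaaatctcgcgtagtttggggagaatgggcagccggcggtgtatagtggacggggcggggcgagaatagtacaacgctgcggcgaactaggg
Rpa2, chr4:132768110-132768409, plus strand: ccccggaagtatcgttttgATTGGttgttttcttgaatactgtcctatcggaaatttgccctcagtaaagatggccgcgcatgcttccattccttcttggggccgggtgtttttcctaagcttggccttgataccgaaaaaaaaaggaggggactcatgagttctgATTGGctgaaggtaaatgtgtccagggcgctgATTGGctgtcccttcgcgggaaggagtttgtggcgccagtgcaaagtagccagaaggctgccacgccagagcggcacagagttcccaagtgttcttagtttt
The Dut window held none of the searched letters, and no other Dut start was searched. Dut stayed nearly level across FS_CTR libraries, with 1.16 between the highest and lowest CPM. The windows of Tyms, E2f1, Rfc5, Ccne1 and Pola2 held none either, with FS_CTR ratios of 1.75, 1.74, 1.63, 1.72 and 1.31. A window without matches thus did not go with level values.
Dut, chr2:125247265-125247564, plus strand: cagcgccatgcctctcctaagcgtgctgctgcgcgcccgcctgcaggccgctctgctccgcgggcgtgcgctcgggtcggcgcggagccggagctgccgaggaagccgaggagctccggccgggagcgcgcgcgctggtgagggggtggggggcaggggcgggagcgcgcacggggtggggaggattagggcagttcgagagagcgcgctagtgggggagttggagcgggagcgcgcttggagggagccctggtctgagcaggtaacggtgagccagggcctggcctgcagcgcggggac
The 17 genes with an E2F-type match in any window had a median Log2(FC) of -0.30 and the 17 genes with a window but no match had -0.31, close to each other. Log2(FC) is the fitted log2 ratio of FS_DSS over FS_CTR throughout, and a negative value means lower in FS_DSS. CPM was higher in both FS_CTR replicates 1 and 2 than in both 3 and 4 for 17 of the 17 genes with a match and for 15 of the 17 without.

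Most replication genes were somewhat lower in FS_DSS organoids, but for most of them by less than the spread between libraries. The fitted Log2(FC) was negative for 37 of 41 genes, with a median of -0.29, against -0.02 over all genes tested, 52.5% of which were negative. In edgeR's quasi-likelihood test with Benjamini-Hochberg adjustment, 0 of the 41 genes passed an adjusted p of 0.05, as did 0% of all genes, and the smallest adjusted p among them was 0.0979. By edgeR at an unadjusted p under 0.05, 4 genes were lower (Orc6, Rpa2, Dut and Gins2), 9.76% of the 41 against 13.4% of all genes, and 0 were higher, against 10.6%. The lower share is thus below the background and is no result about the group. At the call rule used in the study, an unadjusted p under 0.05 with a Log2(FC) of at least 0.58 in size, 1 gene was lower (Rpa2), where 6.46% of all genes were lower, and 0 were higher, where 2.56% were. FS_DSS and FS_CTR values did not overlap for 2 genes, both lower in FS_DSS (Orc6 and Dut), and for 0 genes higher, against 7.58% and 7.41% of all genes.

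Within each condition, the replication genes moved together across libraries. Summed CPM of the 41 genes was 1103, 1099, 853 and 628 in FS_DSS replicates 1 to 4, against 1339, 1308, 932 and 784 in FS_CTR replicates 1 to 4. Replicates 1 and 2 were thus high and 3 and 4 low on both sides, and each FS_DSS sum lay under that of the FS_CTR library with the same number. CPM in both replicates 1 and 2 exceeded that in both 3 and 4 for 36 of 41 genes in FS_DSS, against 27.6% of all genes, for 38 in FS_CTR, against 36.6%, and for 34 in both conditions, against 13.8%. This division of the libraries was seen in the data, so these counts are a description with no test. FS_DSS replicate 4 was the lowest of the 8 libraries for 31 of the 41 genes, against 18.3% of all genes, while FS_CTR replicate 1 was the highest for 21 and FS_CTR replicate 2 for 14. The ratio of the highest to the lowest library within a condition had a median of 1.84 over the 41 genes in FS_DSS and of 1.81 over 40 of them in FS_CTR, leaving out Rfc1, against 1.32 and 1.46 over all genes.

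**Figure D1:**
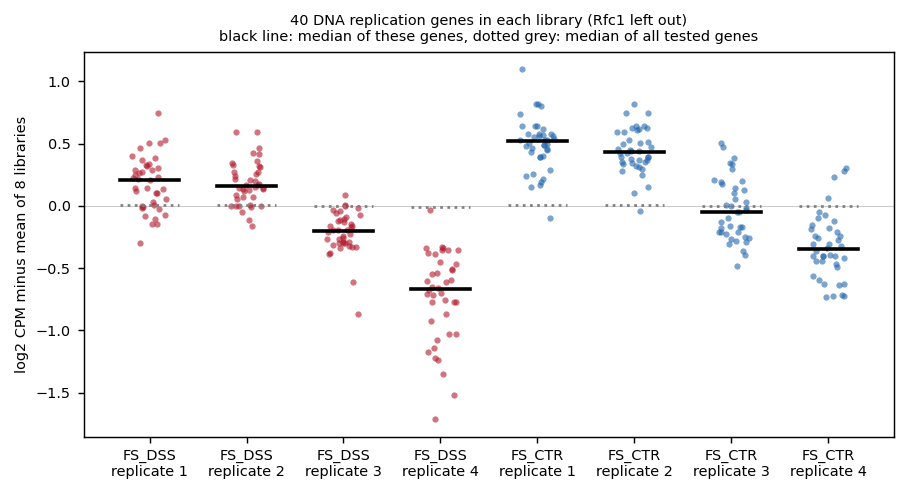
Each point is 1 of 40 replication genes in 1 library, plotted as its log2 CPM minus its mean over the 8 libraries, with FS_DSS libraries in red and FS_CTR libraries in blue. Black lines mark the medians, 0.21, 0.16, -0.20 and -0.67 in FS_DSS replicates 1 to 4 and 0.52, 0.43, -0.05 and -0.35 in FS_CTR replicates 1 to 4, while the medians of all genes (dotted) lie near 0.

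Same-numbered libraries of both conditions were therefore also compared directly. Across all genes libraries with equal numbers deviated together from the mean of their condition, with correlations of 0.352, 0.221, 0.154 and 0.226 for numbers 1 to 4, and the numbers were taken as pairs, although no source says what they stand for. FS_DSS replicate 4 and FS_CTR replicate 3, of unequal number, correlated at 0.188, above the 0.154 of number 3. The pairing was read from these same libraries, so the results by number that follow are not independent of the pattern above. Of the 41 genes, 19 had lower CPM in FS_DSS in 4 of 4 pairs (46.3%), against 21% of all genes, and 1 (Ccne1) was higher in 4 of 4, against 20.6%. The number of the 41 genes lower in FS_DSS was 35, 37, 23 and 32 in pairs 1 to 4, against 49.8%, 51.3%, 49.5% and 51.6% of all genes. The median log2 ratios of the 41 genes were -0.29, -0.24, -0.07 and -0.32, against -0.02 to 0.01 over all genes. Pair 3 was thus nearly balanced.

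With the replicate number as a block in the edgeR fit, 18 of the 41 genes were lower at an unadjusted p under 0.05 (43.9%), against 16.2% of all genes, and 0 were higher, against 14.7%. By the blocked edgeR fit at an adjusted p under 0.05, 1 gene fell in FS_DSS, Rpa2, where 1.41% of all genes did, and 0 rose, where 0.534% did. The median Log2(FC) moved little, to -0.29 in the blocked fit. What differed was the error: the median standard error of the 41 genes was 0.12 with the block, against 0.28 without it. Over all genes the median was 0.13 with the block, against 0.16 without it. The standard error was smaller with the block in 40 of the 41 genes, against 81.4% of all genes.

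**Figure D2:**
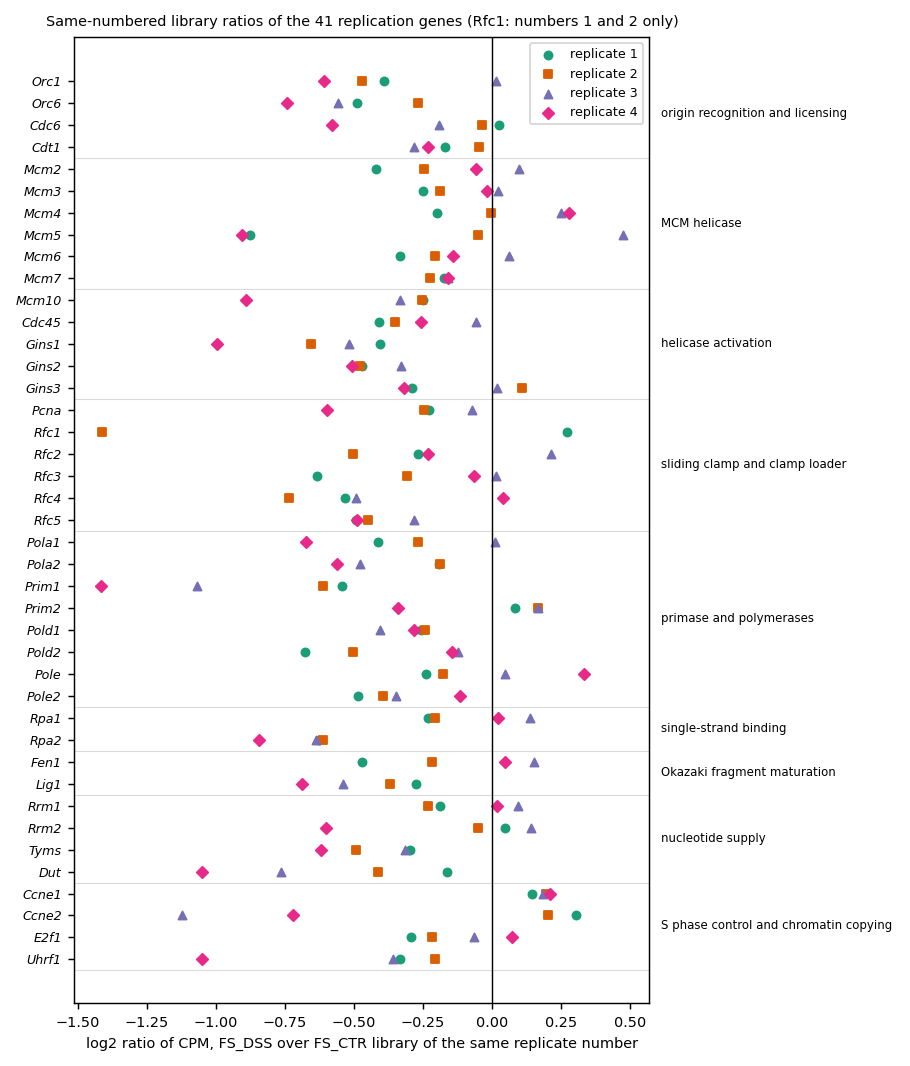
Log2 ratio of CPM in each FS_DSS library over the FS_CTR library of the same replicate number, for the 41 genes grouped by role, with a 0.1 CPM pseudocount and 1 symbol per number. Left of the black line a gene is lower in FS_DSS, as 35, 37, 23 and 32 genes were for numbers 1 to 4. Of all genes 49.8%, 51.3%, 49.5% and 51.6% were lower, and Rfc1 is drawn for numbers 1 and 2 only.

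The count of lower genes depended on which libraries entered. With replicates 1 and 2 alone, 18 of 41 genes were lower at an unadjusted p under 0.05 in edgeR, against 10.3% of all genes, with a median Log2(FC) of -0.29. With replicates 3 and 4 alone, 6 were lower, against 22.9% of all genes, with a median of -0.24. Without FS_CTR replicates 3 and 4, 19 were lower, against 10.9%, and the median was -0.54, with the low FS_DSS replicates 3 and 4 kept. Without FS_CTR replicate 4 alone, 11 were lower, against 11.2%. DESeq2, as another test of all 8 libraries, gave an adjusted p under 0.05 for 3 genes lower in FS_DSS (Orc6, Dut and Rpa2), against 6.06% of all genes, and for 0 higher, against 5.06%.

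Among the origin factors, Orc6 showed the smallest p of the 41 genes. Orc6, the small subunit of the origin recognition complex (chromosome 8, 86026219 to 86034912 on GRCm39, plus strand), had 8.79, 9.65, 10.4 and 7.56 CPM in FS_DSS replicates 1 to 4, against 12.4, 11.6, 15.3 and 12.7 CPM in FS_CTR replicates 1 to 4. The groups did not overlap, and FS_CTR replicate 3 was the highest library, unlike in most of the other genes. Its Log2(FC) was -0.51 with a standard error of 0.14 (adjusted p = 0.0979 in edgeR, 0.064 with the block, 0.022 in DESeq2). Cdt1, which brings MCM to the origin and had the highest level per length of this role, had 26.1, 25.8, 16.96 and 14.2 CPM in FS_DSS, against 29.4, 26.6, 20.7 and 16.7 CPM in FS_CTR. Each FS_DSS library lay below its same-numbered partner, by a log2 ratio of -0.05 to -0.28, yet the groups overlapped over most of their range. Orc1, the largest subunit of the complex, and Cdc6 had Log2(FC) of -0.40 and -0.14, and neither passed an adjusted p of 0.05 in any of these 3 tests.

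Of the MCM genes, Mcm7, Mcm6 and Mcm2 were among the most abundant replication genes per length, and none of the 6 passed an unadjusted p of 0.05 in edgeR without the block. Per kilobase of transcript, the mean over the 8 libraries was 31.6 CPM for Mcm7, 20.5 for Mcm6, 13.6 for Mcm2, 7.95 for Mcm3, 7.64 for Mcm4 and 2.09 for Mcm5, although their proteins form 1 ring with a copy of each. Mcm7 (chromosome 5, 138162844 to 138170684, minus strand) had 100.2, 97.0, 80.1 and 73.2 CPM in FS_DSS, against 113, 113, 89.5 and 81.7 CPM in FS_CTR. The log2 ratio was close to equal in all 4 pairs, -0.16 to -0.23, while its Log2(FC) of -0.18 with a standard error of 0.15 had an adjusted p of 0.456 in edgeR and 0.11 with the block. Mcm6, named here after its values were seen, had 71.1, 71.9, 51.2 and 33.7 CPM in FS_DSS, against 89.6, 83.0, 49.1 and 37.2 CPM in FS_CTR. It was lower in FS_DSS in 3 pairs and not in pair 3, and in both conditions replicate 4 held less than replicates 1 and 2 did. Mcm4 was the one MCM gene with a positive Log2(FC), 0.03, and the other 5 ran from -0.38 to -0.14.

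Of the helicase activation genes, Gins2 had the smallest p. Gins2, a subunit of the GINS complex that joins MCM and Cdc45 in the active helicase (chromosome 8, 121305372 to 121316043, minus strand), had 11.7, 11.4, 9.16 and 7.52 CPM in FS_DSS, against 16.3, 15.9, 11.5 and 10.7 CPM in FS_CTR. Its log2 ratio was -0.33 to -0.51 over the 4 pairs, so the difference held at every number although the groups overlapped. Log2(FC) was -0.46 with a standard error of 0.20 without the block and 0.09 with it (edgeR adjusted p = 0.202 and 0.0598). Gins1, its partner subunit with the highest level per length of this role, had 4.09, 3.91, 3.25 and 1.45 CPM in FS_DSS, against 5.46, 6.21, 4.69 and 2.99 CPM in FS_CTR. These are among the lowest levels of the 41 genes, and the Log2(FC) of -0.62 with a standard error of 0.35 did not pass (adjusted p = 0.302 in edgeR). Gins3, a further subunit, had -0.13 and was lower in 2 of 4 pairs, while Mcm10 and Cdc45, which help to start the helicase, had -0.37 and -0.31 and were lower in 4 of 4.

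**Figure D3:**
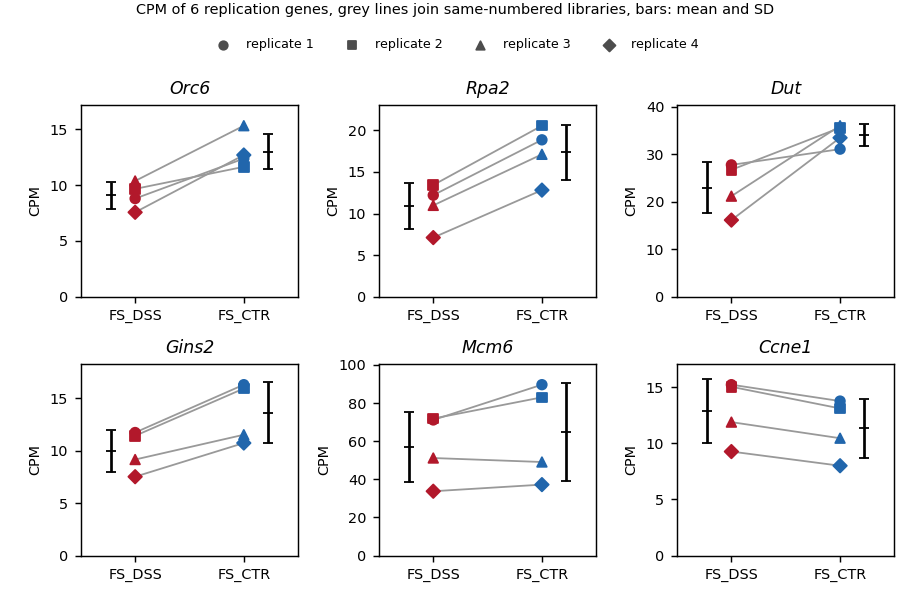
CPM of Orc6, Rpa2, Dut, Gins2, Mcm6 and Ccne1 in the 4 FS_DSS (red, left) and 4 FS_CTR (blue, right) libraries, with 1 symbol per replicate number, grey lines joining equal numbers and bars for mean and SD. Every line runs upward to FS_CTR for Orc6, Rpa2, Dut and Gins2, and every line runs downward for Ccne1.

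Pcna, the sliding clamp that holds polymerases on DNA (chromosome 2, 132091082 to 132095234, minus strand), had the highest level per length of all 41 genes, 63.6 CPM per kilobase over the 8 libraries. It had 90.4, 105, 88.3 and 65.5 CPM in FS_DSS, against 106, 125, 93.0 and 99.2 CPM in FS_CTR. FS_DSS replicate 4 was the lowest library and FS_DSS replicate 2 reached into the FS_CTR range, and the Log2(FC) of -0.28 with a standard error of 0.15 did not pass (adjusted p = 0.29 in edgeR and 0.123 with the block). Of the loader that opens the clamp, Rfc5 had the smallest p. Rfc5 had 20.7, 20.7, 18.5 and 12.7 CPM in FS_DSS, against 29.1, 28.2, 22.5 and 17.8 CPM in FS_CTR, with a Log2(FC) of -0.43, a standard error of 0.20 and an adjusted p of 0.231 in edgeR (0.0578 with the block). It was lower in 4 of 4 pairs. Rfc2, Rfc3 and Rfc4 ran from -0.52 to -0.21 and were lower in 3 of 4.

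Rfc1, the large loader subunit, could not be compared over all libraries. Its counts were 92, 122, 168 and 122 in FS_DSS, against 80, 329, 0 and 0 in FS_CTR replicates 1 to 4. It is 1 of 10 genes listed at 0 in FS_CTR replicates 3 and 4 with at least 50 counts in each of the other 6 libraries, and no fold change is given for it. Its fitted value still enters the counts and medians over the 41 genes.

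Primase showed both the most negative Log2(FC) and one of the flattest patterns among the 41 genes. Prim1, the catalytic subunit that lays down RNA primers (chromosome 10, 127851031 to 127867682, plus strand), had 8.82, 8.37, 4.78 and 2.23 CPM in FS_DSS, against 12.9, 12.8, 10.1 and 6.12 CPM in FS_CTR. The log2 ratio was more negative in pairs 3 and 4, -1.07 and -1.42, than in pairs 1 and 2, -0.54 and -0.61. Log2(FC) was -0.80 with a standard error of 0.41 (adjusted p = 0.267 in edgeR), and -0.90 with 0.18 in the blocked edgeR fit (adjusted p = 0.0577). Prim2, the other primase subunit, had 14.3, 15.7, 13.97 and 14.02 CPM in FS_DSS, against 13.4, 13.998, 12.4 and 17.8 CPM in FS_CTR. It was singled out after its values were seen: its Log2(FC) was 0.01 with a standard error of 0.13, and the ratio of its highest to its lowest FS_DSS library, 1.13, was the smallest of the 41 genes. The 2 subunits act as 1 enzyme with Pola1 and Pola2, which had Log2(FC) of -0.34 and -0.33.

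Of the polymerases that copy most of the genome, Pold2, the accessory subunit of polymerase delta, had the highest level per length of this role. Pold2 had 25.5, 29.9, 25.8 and 19.3 CPM in FS_DSS, against 40.9, 42.5, 28.1 and 21.3 CPM in FS_CTR. The difference lay in the first libraries: log2 ratios were -0.68 and -0.50 in pairs 1 and 2 and -0.12 and -0.14 in pairs 3 and 4, with a Log2(FC) of -0.41, a standard error of 0.23 and an adjusted p of 0.299 in edgeR. Pold1, its catalytic subunit, had -0.30 and was lower in 4 of 4 pairs. Pole, the catalytic subunit of polymerase epsilon, had -0.08 and was lower in 2 of 4, and its partner Pole2 had -0.38 and was lower in 4 of 4.

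Rpa2, a subunit of the replication protein A complex that coats single-stranded DNA (chromosome 4, 132495643 to 132506063, plus strand), gave the one call of the blocked fit. It had 12.2, 13.4, 10.98 and 7.10 CPM in FS_DSS, against 18.9, 20.6, 17.1 and 12.8 CPM in FS_CTR, or a mean of 10.9 ± 2.74 CPM and 17.3 ± 3.33 CPM (SD, n = 4 each). FS_DSS replicate 2 reached above FS_CTR replicate 4, while within pairs the log2 ratio stayed between -0.61 and -0.84. Log2(FC) was -0.67 with a standard error of 0.22 (adjusted p = 0.125 in edgeR), and -0.68 with 0.10 in the blocked edgeR fit (adjusted p = 0.0448). Rpa1, the large subunit of the same complex, had a Log2(FC) of -0.10 and was lower in 2 of 4 pairs, so the partners were not alike in their values. The difference between them was not tested.

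Lig1, the ligase that seals Okazaki fragments, had 49.1, 44.3, 31.7 and 19.7 CPM in FS_DSS, against 59.4, 57.2, 46.1 and 31.8 CPM in FS_CTR. It was lower in 4 of 4 pairs, with a Log2(FC) of -0.43 and a standard error of 0.29 without the block and 0.09 with it (edgeR adjusted p = 0.383 and 0.0565). Fen1, the nuclease that trims the fragments before Lig1 joins them, had -0.16 and was lower in 2 of 4.

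In nucleotide supply, Dut was set apart from its neighbours by its FS_CTR values. Dut removes dUTP and so keeps uracil out of new DNA (chromosome 2, 125089110 to 125100966, plus strand). It had 27.7, 26.7, 21.1 and 16.1 CPM in FS_DSS, against 31.1, 35.6, 36.0 and 33.4 CPM in FS_CTR, a mean of 22.9 ± 5.38 CPM and 34.01 ± 2.26 CPM (SD, n = 4 each). The groups did not overlap. The FS_CTR libraries were level, with 1.16 between highest and lowest, the smallest such ratio of the 40 genes compared, while FS_DSS replicates 3 and 4 were low as for the other genes. Log2(FC) was -0.57 with a standard error of 0.17 (adjusted p = 0.103 in edgeR, 0.082 with the block, 0.0289 in DESeq2). With replicates 1 and 2 alone it was -0.29 (edgeR adjusted p = 0.285), and with replicates 3 and 4 alone, which hold both FS_CTR libraries of high mitochondrial share, it was -0.88 (edgeR adjusted p = 0.00654). Tyms, which makes thymidylate, had -0.42 and was lower in 4 of 4 pairs, whereas Rrm1 and Rrm2, the subunits of ribonucleotide reductase, had -0.12 and -0.06 and were lower in 2 of 4 each.

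Uhrf1, which carries DNA methylation onto new strands, had with Prim1 the widest spread across FS_DSS libraries. It had 59.4, 57.3, 34.2 and 15.0 CPM in FS_DSS, against 74.9, 66.2, 43.9 and 31.1 CPM in FS_CTR. FS_DSS replicate 1 held 3.96 times the CPM of replicate 4, and the Log2(FC) of -0.39 with a standard error of 0.42 did not pass (adjusted p = 0.588 in edgeR, 0.106 with the block). Ccne1, the cyclin that drives cells into S phase, ran the other way and was singled out for that. It had 15.2, 15.0, 11.9 and 9.27 CPM in FS_DSS, against 13.8, 13.1, 10.5 and 8.004 CPM in FS_CTR. It was higher in FS_DSS in 4 of 4 pairs, by log2 ratios of 0.15 to 0.21, with a Log2(FC) of 0.18 and a standard error of 0.22 (edgeR adjusted p = 0.634, and 0.219 with the block). Within each condition it followed the other genes, with replicates 1 and 2 above 3 and 4. Ccne2, its close relative, had a Log2(FC) of -0.16 and was lower in pairs 3 and 4 only, and E2f1, a factor that activates many genes of this group, had -0.16.

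**Figure D4:**
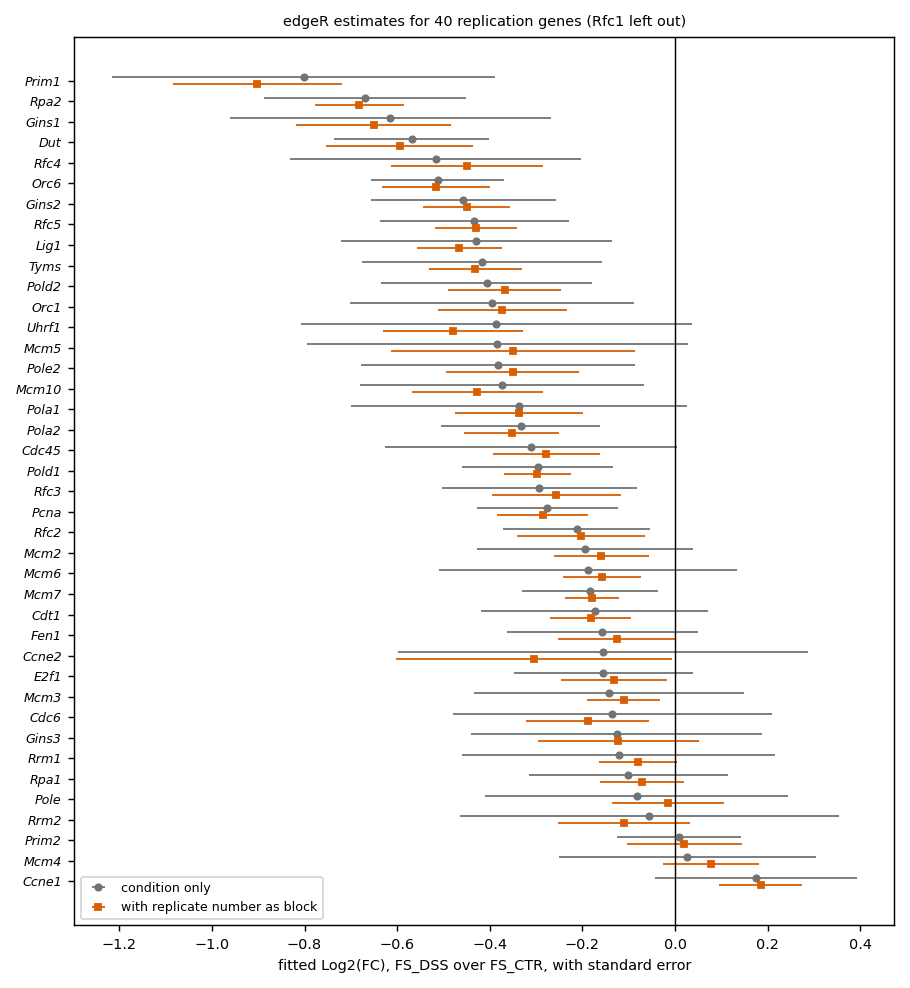
Fitted Log2(FC) of FS_DSS over FS_CTR with its standard error for 40 replication genes, in grey with condition alone and in orange with the replicate number as a block, sorted by the grey value. The points hardly move between the fits while the orange error bars are shorter in most genes, and Prim1 and Rpa2 stand at the top with -0.80 and -0.67.

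Genes that act beside these in replication were counted in the same way. Among 33 further replisome and licensing genes, 7 were lower and 0 higher at an unadjusted p under 0.05 in edgeR, and 12 were lower with the block, against the 13.4% and 16.2% of all genes above. Rnaseh2b, a subunit of the enzyme that removes ribonucleotides from DNA, and Pole3, a histone-fold subunit of polymerase epsilon, had the smallest p of that list. Rnaseh2b had 10.6, 11.5, 12.1 and 10.5 CPM in FS_DSS, against 15.0, 15.7, 14.9 and 15.4 CPM in FS_CTR. It was level within each condition and did not overlap between them, with a Log2(FC) of -0.45 (edgeR adjusted p = 0.0791). Pole3 had 22.9, 25.7, 25.6 and 23.3 CPM in FS_DSS, against 29.2, 32.3, 33.4 and 32.3 CPM in FS_CTR, with a Log2(FC) of -0.38 (edgeR adjusted p = 0.0805).

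Of 18 further nucleotide supply genes tested, 4 were lower and 2 higher at an unadjusted p under 0.05 in edgeR, against 13.4% and 10.6% of all genes. With the block, 7 were lower and 0 higher, against 16.2% and 14.7%. Nme1, a nucleoside diphosphate kinase, had 42.2, 49.8, 53.6 and 60.6 CPM in FS_DSS, against 63.5, 68.9, 87.0 and 93.3 CPM in FS_CTR. Its libraries ran opposite to the 41 genes within each condition, high in replicates 3 and 4, with a Log2(FC) of -0.60 (edgeR adjusted p = 0.0883, and 0.0397 with the block). Tk1, the thymidine kinase of S phase, was the other gene of this list to pass with the block and was named for that. Its Log2(FC) was -0.72 in the blocked edgeR fit (adjusted p = 0.0478) and -0.68 without the block (adjusted p = 0.181 in edgeR). Dtymk, thymidylate kinase, had a Log2(FC) of -0.42 without the block. Gart, a purine synthesis enzyme, and Rrm2b, a ribonucleotide reductase subunit used outside S phase, had 0.61 and 0.28, at edgeR adjusted p = 0.168 and 0.196.

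Regulators of the G1 to S step gave values on both sides. Of 27 tested, 2 were lower and 2 higher at an unadjusted p under 0.05 in edgeR, and 7 were lower and 2 higher with the block, against the same shares of all genes. Cdk6, a kinase that opens the way to S phase, had 206, 199, 228 and 250.9 CPM in FS_DSS, against 178, 171, 182 and 172 CPM in FS_CTR, with a Log2(FC) of 0.33 (edgeR adjusted p = 0.0988). Myc, a growth factor-responsive transcription factor, had 0.52, while Ccnd3, a partner of Cdk6, and Cdkn1b, a kinase inhibitor, had -0.28 and -0.39. Values of Cdk6 did not overlap between the groups. Of 8 chromatin copying genes, which load histones onto new DNA, 2 were lower (the chaperones Asf1a and Nasp, -0.42 and -0.44) and 0 higher, with 4 lower under the block. Of 10 replication checkpoint genes, 0 were lower and 0 higher without the block, where 3 were lower with it (Chek1, Fbxo5 and Dtl). Of all genes, 13.4% were lower and 10.6% higher without the block, and 16.2% and 14.7% with it.

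Mitosis genes moved across libraries as the replication genes did. Summed CPM of 30 mitosis genes was 854, 772, 529 and 293 in FS_DSS replicates 1 to 4, against 1102, 1047, 559 and 425 in FS_CTR replicates 1 to 4. Of the 30, 1 was lower at an unadjusted p under 0.05 in edgeR, against 13.4% of all genes, and 19 were lower with the block, against 16.2%. Cenpa, the centromere histone, had 13.99, 16.0, 11.9 and 6.56 CPM in FS_DSS, against 22.9, 24.5, 20.7 and 13.6 CPM in FS_CTR, and fell in the blocked edgeR fit (Log2(FC) of -0.79, adjusted p = 0.0437). Without the block its Log2(FC) was -0.76 (adjusted p = 0.152 in edgeR). Markers of colon stem cells followed a like order: 8 of them summed to 351, 274, 241 and 165 CPM in FS_DSS, against 486, 369, 269 and 222 CPM in FS_CTR. Log2(FC) was negative for 6 of these 8 markers and not for the rest. Lgr5, Ascl2 and Smoc2, 3 of the 8, were lower at an unadjusted p under 0.05 in edgeR, against 13.4% of all genes. Their Log2(FC) was -1.37, -0.99 and -2.57. None of the 8 passed an adjusted p of 0.05 in edgeR without the block, and Axin2 did with it. Summed CPM of 9 markers of mature colonocytes was 7097, 7367, 5878 and 4753 in FS_DSS, against 5599, 6787, 7335 and 9729 in FS_CTR, so replicates 3 and 4 were low in FS_DSS and high in FS_CTR. Gene by gene, 8 of the 9 colonocyte markers had a negative Log2(FC), with a median of -0.45. At an unadjusted p under 0.05 in edgeR, 1 was lower and 0 were higher, and 3 were lower with the block. Sums of further nucleotide supply genes and of G1 to S regulators did not place replicates 1 and 2 above 3 and 4 in both conditions. The part of stem cells, colonocytes or mitotic cells in the replication values was not tested.

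**Figure D5:**
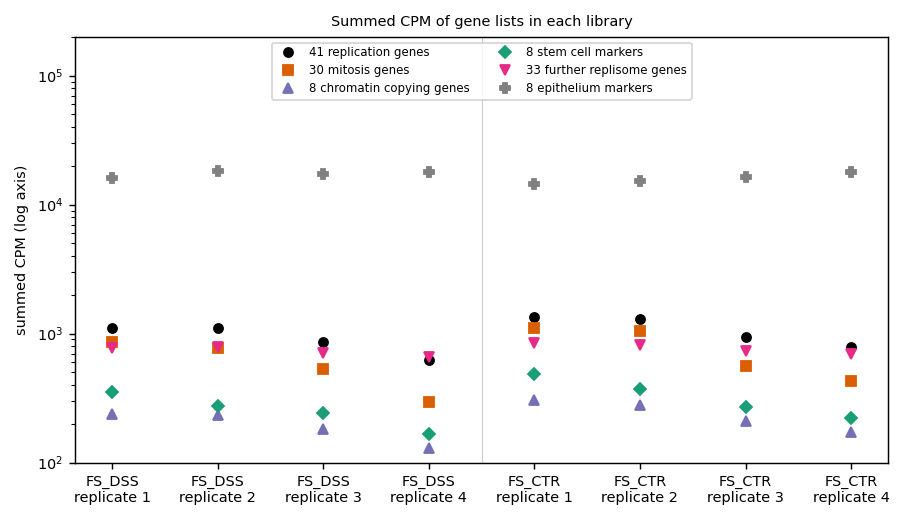
Summed CPM, on a log axis, of the 41 replication genes and of 5 other lists in each library, FS_DSS on the left and FS_CTR on the right. The epithelial sum stays between 14338 and 18220, and the sums of replication, further replisome, mitosis, chromatin copying and stem cell genes, the lists drawn, are lower in replicates 3 and 4 than in 1 and 2 of each condition.

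Transcript length also moved with the values. Over 11625 genes with a canonical transcript, Log2(FC) and its length had a Spearman correlation of 0.386, and over the 41 replication genes 0.393, so short transcripts had the more negative values. These are correlations across genes of the same 8 libraries, given as a description, and the part of length in the differences was not tested. Lengths of the 41 genes ran from 1115 to 8110 bases, with a median of 2970, against 3463 over all these genes. Exons of 11 of the 41 genes overlap a gene on the opposite strand that has counts in the table: Orc1 (Prpf38a), Orc6 (Vps35), Mcm7 (Ap4m1 and Cops6), Gins2 (Gse1), Rfc2 (Lat2), Rfc4 (Eif4a2), Rfc5 (Wsb2), Rpa1 (Smyd4), Fen1 (Tmem258), Ccne1 (1600014C10Rik) and Ccne2 (Ints8). Ccne1, which ran against the other genes, is among them, and so are Orc6, Gins2 and Rfc5, which were lower in FS_DSS. As the strand setting of the counting is not given in the sources used here, reads of the partners may not be told apart. The part of these overlaps in the values was not tested.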

How the data were processed

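RNA of mouse colon organoids was sequenced in stranded paired-end libraries, 4 per condition, and all 8 were assigned from their labels, with 0 columns of no mapped sample. The authors made the deposited values, estimated counts per gene symbol, with Salmon 1.10.1 on the GRCm39 transcriptome and tximport. Its release is, like the strand setting, not given in the sources used here. A later normalization by the authors with DESeq2 1.36.0 is not part of the deposited values, which were whole numbers and were used as they stood. Totals ran from 18968416 to 27035243 counts.

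The comparison used edgeR 4.0.16 in R 4.3.3, by its quasi-likelihood test on all genes (TMM, filterByExpr, condition as the only term, Benjamini-Hochberg adjustment over 12729 genes). Standard errors are approximate, taken as the size of Log2(FC) over the root of the F statistic. The script was checked on simulated data. Alternatives were DESeq2 1.42.0, limma-voom (limma 3.58.1), other scalings and filters, libraries left out, replicates 1 and 2 or 3 and 4 alone, and the replicate number as a block. The numbers were taken as pairs because the deviations of all 4 same-numbered pairs from their group means correlated above 0.1. FS_DSS replicate 4 correlated with FS_CTR replicate 3 at 0.188, above the 0.154 of the same-numbered pair 3. Within-number ratios used CPM with a 0.1 pseudocount.

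Values in every library are given for genes at an unadjusted p under 0.05 or with no overlap, and for the smallest p and the highest CPM per kilobase in each of 9 roles. In the other replication and cell cycle lists up to 2 genes a direction were named. Mcm6, Prim2, Rfc1, Ccne1, Tk1, Lgr5, Ascl2, Smoc2, Axin2, Chek1, Fbxo5 and Dtl were added after their values were seen. The members, the lists and the marker genes were chosen with earlier results of these data known. Gene positions and canonical transcript lengths came from GENCODE vM39 on GRCm39, and promoter windows from RefSeq on GRCm38.p6. Python 3.11.15 with pandas 2.3.3 and matplotlib 3.10.9 was used for tables and figures.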

Additional observations from a re-analysis of the deposited data

Results flagged for a closer look

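Of 82 groups of 4 libraries, the 41 replication genes in each condition, 1 had a library set apart from the other 3 by Dixon's ratio of the gap to the range, above the critical value for 4 values. Prim2 had 15.7 CPM in FS_DSS replicate 2, the highest of that condition, against 13.97 to 14.3 CPM in the other 3. Its gap over range was 0.839. Chance sets apart about 5% of groups at this critical value, and the 82 groups share libraries.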

How the results depend on the processing

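The number of the 41 replication genes lower at an unadjusted p under 0.05 was 4 in edgeR with all 8 libraries, against 13.4% of all genes. With library totals alone as the scaling it was 0, against only 1.40% of all genes. It was 11 without FS_CTR replicate 4, against 11.2%, and 19 without FS_CTR replicates 3 and 4, against 10.9%. With replicates 1 and 2 alone it was 18, against 10.3%. At the call rule used in the study it was 1, against 6.46%. At an adjusted p under 0.05 it was 0, against 0%. Over the libraries left out in turn it ran from 3 to 11. The number higher was 0, and 1 (Rfc1, listed at 0 in both FS_CTR libraries) with replicates 3 and 4 alone. With the replicate number as a block, the pairing gave 18 lower, against 16.2% of all genes. By the blocked edgeR fit Rpa2 passed an adjusted p of 0.05 while no other named replication gene changed its call. The median Log2(FC) of the 41 genes was negative under all 19 alternatives that gave one. It ran from -0.54 without FS_CTR replicates 3 and 4 to -0.01 with library totals alone, and from -0.40 to -0.13 over the libraries left out in turn. With mitochondrially encoded genes left out of the TMM scaling it was -0.28, against -0.01 over all genes. Library totals alone moved the median of all genes to 0.31, so relative to it the 41 genes lay at -0.32. In that fit 21 of the 41 genes had a negative Log2(FC), against 37 in the main fit. Cdt1, Mcm7 and Pcna were among those that turned positive, at 0.0764, 0.0903 and 0.0166. The 6 other replication and cell cycle lists held 33, 18, 27, 8, 10 and 30 tested genes. Among them 16 were lower and 4 higher in edgeR, against 13.4% and 10.6% of all genes. Under the block 52 and 2 were, against 16.2% and 14.7%. Over the libraries left out these counts were 11 to 28 and 1 to 4. The cause of the differences between settings was not tested. Counts of the 41 genes ran from 28 to 3802 per library apart from Rfc1.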
